A study of Mus musculus with 28 samples.

Results

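Cholesterol synthesis genes and targets of the sterol-regulated transcription factor SREBP2 were followed as a set of 28 genes, chosen by name: the enzymes that turn acetyl-CoA into cholesterol, the sensors and the factor that set their level, and a few transport and acetyl-CoA genes. All 28 were present in each of the 3 deposited tables, among 17752 features in livers, 56748 in the cultures for NFATc3-MKI and 21959 in the cultures for ASK1-MKI. The study asked how 2 macrophage proteins, the calcineurin-dependent transcription factor NFATc3 and the stress kinase ASK1 (gene Map3k5), act during diet-induced steatohepatitis. Liver messenger RNA came from male mice that started a methionine- and choline-deficient diet at 8 weeks of age and stayed on it for 4 weeks. The 4 liver groups held 4 livers each: ASK1-MKO (ASK1 knocked out in macrophages), MDKO (both NFATc3 and ASK1 knocked out), NFATc3-MKO (NFATc3 knocked out in macrophages) and Lyz2-Cre (the Cre control). All of these mice received the diet, so no liver stands for a healthy state. Lyz2-Cre is active in macrophages, monocytes and neutrophils, so hepatocytes, which supply most liver RNA, are not the cells in which the genes were deleted. In these whole-tissue samples, fewer cells of a type and less RNA per cell cannot be told apart. Bone marrow-derived macrophages (BMDMs) were grown for 7 days with 30% L929-conditioned medium and 10% serum, as 3 NFATc3-MKI cultures (NFATc3 knocked in) with 3 Lyz2-Cre controls, and as 3 ASK1-MKI cultures (ASK1 knocked in) with 3 other Lyz2-Cre controls. The labels do not say whether libraries of a group came from separate animals, so p-values measure the spread between these libraries.

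Cholesterol synthesis starts in the mevalonate pathway, where acetyl-CoA units are joined and converted to isoprenoids; squalene synthase then commits the chain to sterols, and a series of endoplasmic reticulum enzymes trims lanosterol to cholesterol. When sterols are scarce, SCAP escorts SREBP2 to the Golgi, where it is cut, and the released fragment enters the nucleus and activates nearly every gene of the pathway. When sterols are plentiful, INSIG1 and INSIG2 hold the SCAP and SREBP2 complex in the endoplasmic reticulum. The liver is a major site of this synthesis, and its transcripts are known to follow feeding and time of day.

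Promoter sequences are shown for Mvd, Mvk, Hmgcs1 and Lss, which were called lower in ASK1-MKO livers, and for Insig1 and Srebf2, which were not called there but were called lower in NFATc3-MKI cultures together with Hmgcs1, Lss and Mvd. SREBP factors bind promoters weakly on their own and are known to act with the CCAAT-binding factor NF-Y, so capitals mark CCAAT boxes (read as CCAAT or, on the other strand, as ATTGG) and, in Hmgcs1, the letters TCACNCCAC, a sterol regulatory element core. Each window runs 5′ to 3′ along its gene, from 250 bases before to 50 bases after the RefSeq start on GRCm38.p6.
Mvd (minus strand, chr8:122443373-122443672): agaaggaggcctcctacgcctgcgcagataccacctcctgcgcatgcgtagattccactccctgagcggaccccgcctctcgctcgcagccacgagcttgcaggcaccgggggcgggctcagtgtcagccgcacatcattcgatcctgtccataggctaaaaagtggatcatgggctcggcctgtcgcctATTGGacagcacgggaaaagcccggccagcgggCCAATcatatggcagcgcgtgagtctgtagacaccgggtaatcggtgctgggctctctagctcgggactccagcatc
Mvk (plus strand, chr5:114444019-114444318): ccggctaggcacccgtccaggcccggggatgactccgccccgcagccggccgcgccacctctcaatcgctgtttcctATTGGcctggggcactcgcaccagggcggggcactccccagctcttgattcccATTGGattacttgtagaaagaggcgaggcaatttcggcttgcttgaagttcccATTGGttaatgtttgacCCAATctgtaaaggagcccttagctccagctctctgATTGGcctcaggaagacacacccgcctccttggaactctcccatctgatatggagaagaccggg
Hmgcs1 (plus strand, chr13:119690101-119690400): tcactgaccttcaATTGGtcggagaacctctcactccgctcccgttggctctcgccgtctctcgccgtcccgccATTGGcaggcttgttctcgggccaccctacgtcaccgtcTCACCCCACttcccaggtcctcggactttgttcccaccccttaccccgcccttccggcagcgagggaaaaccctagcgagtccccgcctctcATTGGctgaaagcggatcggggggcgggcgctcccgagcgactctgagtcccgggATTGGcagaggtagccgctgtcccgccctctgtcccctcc
Lss (plus strand, chr10:76531355-76531654): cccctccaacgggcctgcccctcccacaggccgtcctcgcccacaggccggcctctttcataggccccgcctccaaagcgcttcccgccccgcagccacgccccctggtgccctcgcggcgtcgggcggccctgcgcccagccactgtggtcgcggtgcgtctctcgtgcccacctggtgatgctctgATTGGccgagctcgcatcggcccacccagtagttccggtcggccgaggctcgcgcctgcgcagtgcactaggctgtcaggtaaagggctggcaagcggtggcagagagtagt
Insig1 (plus strand, chr5:28071162-28071461): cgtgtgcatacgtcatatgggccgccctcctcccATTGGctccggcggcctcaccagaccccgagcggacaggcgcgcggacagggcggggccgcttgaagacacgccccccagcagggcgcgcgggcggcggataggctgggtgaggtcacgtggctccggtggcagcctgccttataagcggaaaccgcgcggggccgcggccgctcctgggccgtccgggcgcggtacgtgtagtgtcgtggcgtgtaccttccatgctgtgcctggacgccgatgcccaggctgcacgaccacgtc
Srebf2 (plus strand, chr15:82147019-82147318): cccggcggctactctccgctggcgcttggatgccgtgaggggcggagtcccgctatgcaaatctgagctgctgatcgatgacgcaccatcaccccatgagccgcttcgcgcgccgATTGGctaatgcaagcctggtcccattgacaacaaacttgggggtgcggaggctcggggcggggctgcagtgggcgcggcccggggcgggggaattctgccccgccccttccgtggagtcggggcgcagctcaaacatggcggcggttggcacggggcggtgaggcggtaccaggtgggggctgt
RefSeq windows were matched for 24 of the 28 genes by symbol. CCAAT was found on either strand in 21 of the 24 (87.5%), against 41.06% of 27025 genes with a window and 42.85% of the 10426 genes that were also tested in livers. The GC box GGGCGG was found in 20 of 24 (83.3%), against 66.36% of the genes tested in livers, and the E-box CACGTG in 5 of 24 (20.8%), against 11.35%. TCACNCCAC was found only in Hmgcs1 among the 24, against 1.45% of the genes tested in livers. Mvk carried 5 CCAAT boxes and Hmgcs1 carried 4, whereas Lss, Insig1 and Srebf2 carried 1 each. All 10 of the genes called lower in ASK1-MKO livers that have a window held a CCAAT box, as did 11 of the other 14. A gene counted if any of its windows held the letters, and 4 of the 24 had more than 1 window. Dhcr7, among those 10, held CCAAT only in the last of its 3 windows (chr7:143829964-143830263). A match is a description of the letters in these windows and not evidence of binding.

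Library totals were 20601168 to 30834547 expected counts in 15 livers and 8912117 in MDKO liver 3, 7693464 to 9398163 counts in the cultures for NFATc3-MKI and 16051951 to 18728508 in the cultures for ASK1-MKI. Levels are given as CPM, counts per 1000000 of the library total after trimmed-mean scaling. In livers labelled ASK1-MKO, Map3k5 had 41.7, 55.1, 45.4 and 42.8 CPM, against 32.7, 31.8, 27.7 and 31.3 CPM in Lyz2-Cre livers, so the targeted gene was higher than in the control (log2 fold change 0.58, SE 0.15, edgeR adjusted p = 0.0262). In livers labelled NFATc3-MKO, Nfatc3 had 31.5, 31.1, 19.6 and 30.9 CPM, against 30.6, 37.1, 39.8 and 37.6 CPM in Lyz2-Cre livers, and was not called (log2 fold change -0.36, SE 0.14, edgeR adjusted p = 0.12). Cells without the Cre also supply these transcripts, so whole liver checks the deletion weakly. In the knock-in cultures the targeted genes were slightly lower, with log2 fold changes of -0.26 (SE 0.10, edgeR adjusted p = 0.0371) for Nfatc3 in NFATc3-MKI and -0.16 (SE 0.06, edgeR adjusted p = 0.0266) for Map3k5 in ASK1-MKI. Of these 4 readings, Nfatc3 in NFATc3-MKO livers alone ran in the labelled direction, without passing the test. In livers labelled MDKO, Map3k5 had 28.2, 32.3, 29.3 and 32.4 CPM and Nfatc3 had 29.8, 37.5, 39.8 and 39.1 CPM. Both overlapped the Lyz2-Cre livers, and neither was called against them by edgeR, with log2 fold changes from -0.015 to 0.011. Every direction below is that of the libraries so labelled.

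The MDKO and Lyz2-Cre livers were not independent of each other in their values. Each MDKO liver lay closest, among all the other livers, to the Lyz2-Cre liver with the same number, and each Lyz2-Cre liver lay closest to the MDKO liver with its number, by 3 measures of distance. Over the 27 tested genes of the set, the SD of the log2 ratio was 0.095 to 0.137 between MDKO and Lyz2-Cre livers of the same number, against 0.183 to 0.607 between livers of the same group. The chi-square per degree of freedom over all genes was 2.3 to 14.22 for these 4 pairs and 11.3 to 147.94 for pairs within a group, so these pairs differed by more than sampling noise but lay nearer than most replicates did. The labels do not say why. MDKO against ASK1-MKO is therefore not an independent repeat of ASK1-MKO against Lyz2-Cre, and the interaction rests on the same livers. For comparisons that do not use the MDKO livers, the calls in a fit without these livers are also given.

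**Figure D1:**
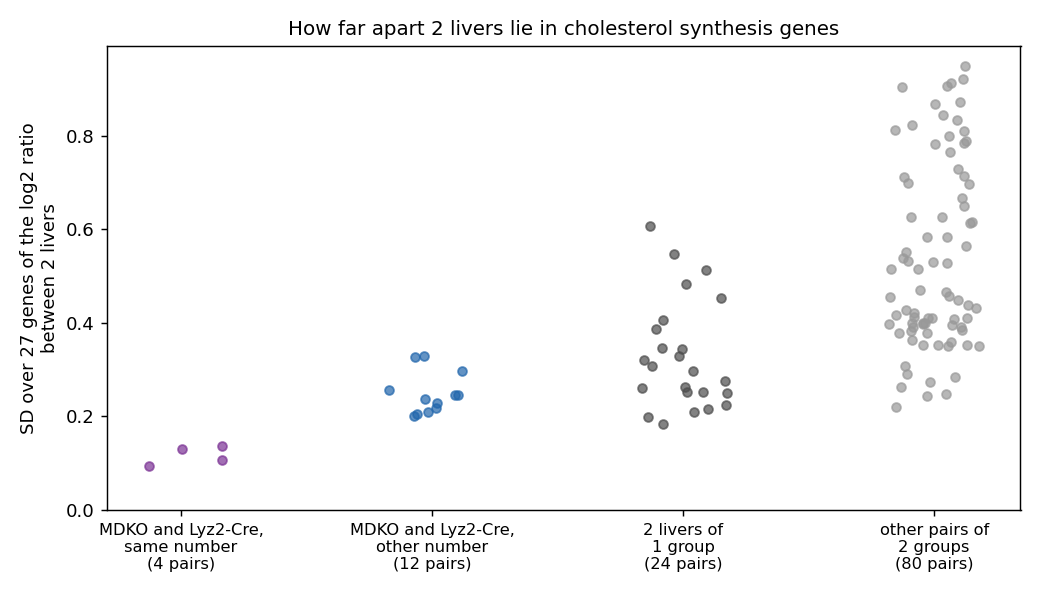
Each point is a pair of livers, and the vertical axis is the SD of the log2 ratio between both livers over the 27 tested cholesterol synthesis genes. The 4 MDKO and Lyz2-Cre pairs with the same number lie at 0.095 to 0.137, below all 24 pairs of livers from the same group, which start at 0.183.

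In whole liver, ASK1-MKO mice had lower transcript levels of 12 of the 27 tested genes than Lyz2-Cre mice, and of none higher, across the mevalonate steps and the lanosterol steps. A gene was called when its edgeR quasi-likelihood p, adjusted by Benjamini-Hochberg over all 13309 genes tested, was below 0.05. In the same comparison, 4% of all tested genes were called lower and 4.46% higher. The median log2 fold change of the 27 genes was -0.57, against -0.03 over all genes, and 20 of the 27 had an unadjusted p below 0.05, 18 of them lower. In 11 of the 27, all 4 ASK1-MKO livers lay below all 4 Lyz2-Cre livers, where 8.81% of all genes did so, and in 1 (Stard4) all lay above, where 9.43% did. The genes of the set were therefore called lower more often than the 4% over all genes, which is a count and not a test of the set. The set was also chosen with earlier results of these data known, so this excess is a description only.

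The upper mevalonate pathway held the largest differences. Mvd, mevalonate diphosphate decarboxylase, which makes isopentenyl diphosphate, had 3.02, 5.13, 4.28 and 4.50 CPM in the 4 ASK1-MKO livers, against 22.9, 9.22, 14.0 and 12.3 CPM in the 4 Lyz2-Cre livers (log2 fold change -1.79, SE 0.27, edgeR adjusted p = 0.000815). Every ASK1-MKO liver lay below every Lyz2-Cre liver, and Lyz2-Cre liver 1 stood well above its group. Hmgcs1, which condenses acetoacetyl-CoA with acetyl-CoA in the cytosol, had 115, 197, 132 and 95.3 CPM in ASK1-MKO livers, against 382, 235, 294 and 384 CPM in Lyz2-Cre livers (log2 fold change -1.26, SE 0.24, edgeR adjusted p = 0.00443). Mvk, mevalonate kinase, had 5.22, 11.0, 8.39 and 7.07 CPM in ASK1-MKO livers, against 20.8, 13.7, 16.5 and 17.9 CPM in Lyz2-Cre livers (log2 fold change -1.12, SE 0.20, edgeR adjusted p = 0.00237). Neither gene overlapped between the groups. Pmvk, phosphomevalonate kinase, had 13.4, 20.6, 16.9 and 10.3 CPM in ASK1-MKO livers, against 33.6, 21.2, 30.3 and 25.9 CPM in Lyz2-Cre livers (log2 fold change -0.86, SE 0.20, edgeR adjusted p = 0.0146). Its groups did not overlap, but ASK1-MKO liver 2 came within reach of Lyz2-Cre liver 2, and the call was lost without ASK1-MKO liver 1 (edgeR adjusted p = 0.0535). Acat2, the cytosolic thiolase that makes acetoacetyl-CoA, had 44.8, 63.9, 47.6 and 48.8 CPM in ASK1-MKO livers, against 80.5, 54.8, 76.7 and 72.2 CPM in Lyz2-Cre livers, and was not called (log2 fold change -0.47, SE 0.17, edgeR adjusted p = 0.102).

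**Figure D2:**
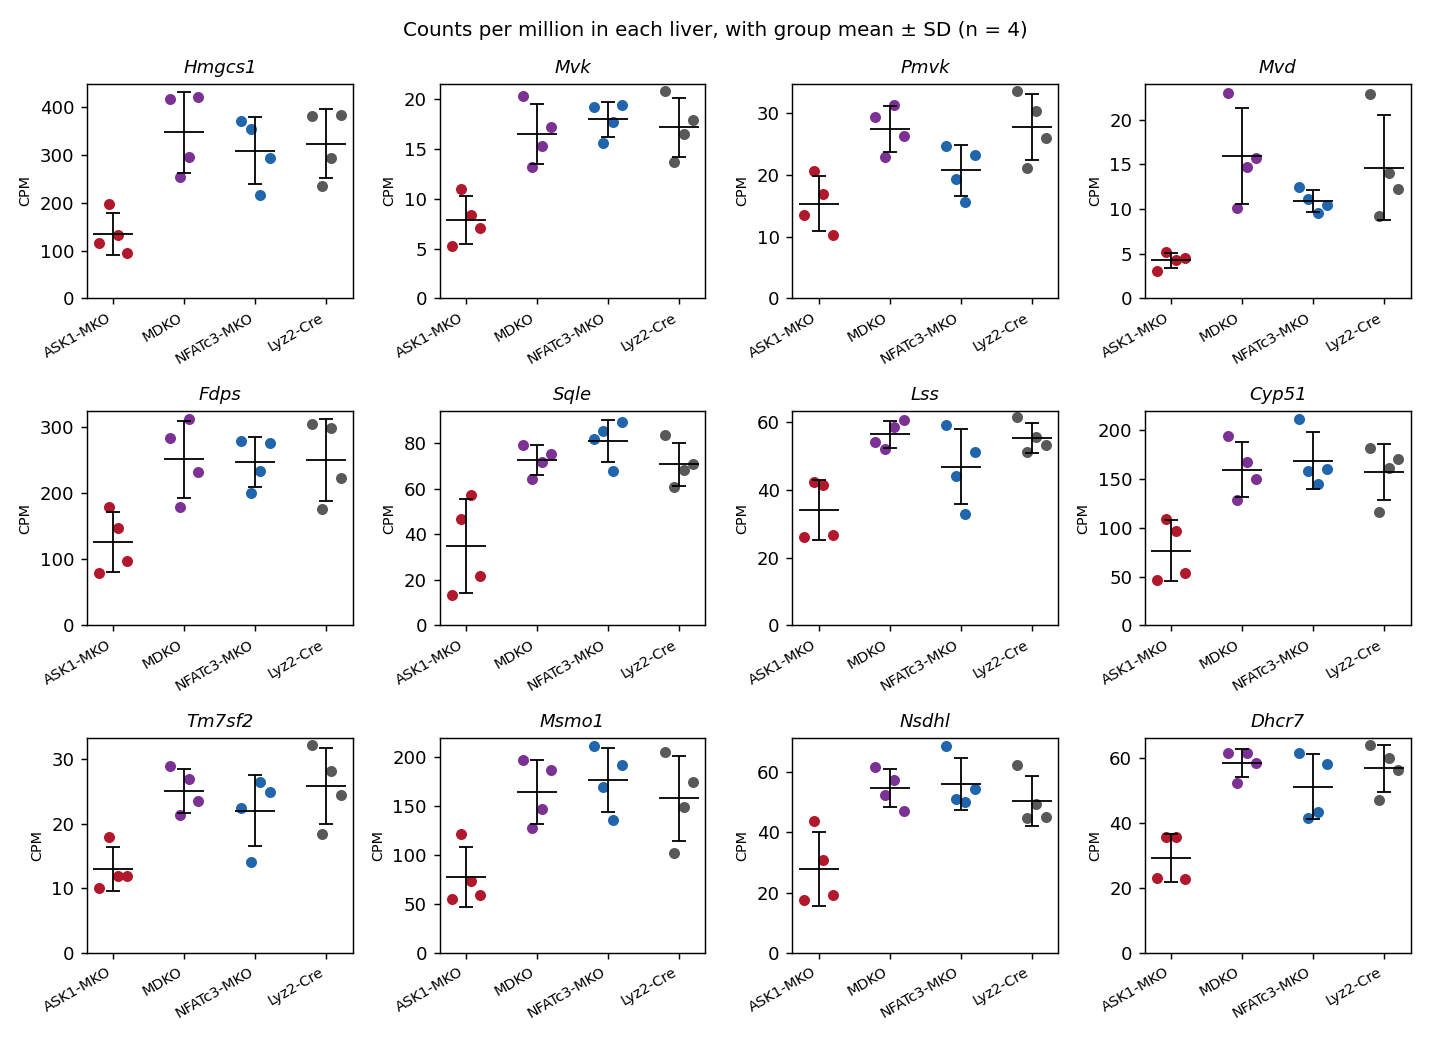
CPM of the 12 genes called lower in ASK1-MKO livers, 1 panel per gene; points are the 4 livers of each group in replicate order and bars are the group mean and SD. The ASK1-MKO livers lie lowest in every panel by their mean, and the MDKO, NFATc3-MKO and Lyz2-Cre livers share a range.

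Of 5 genes of the isoprenoid and squalene steps, Fdps and Sqle were called lower. Fdps, farnesyl diphosphate synthase, had 79.9, 179, 148 and 97.8 CPM in ASK1-MKO livers, against 305, 175, 299 and 223 CPM in Lyz2-Cre livers (log2 fold change -0.99, SE 0.24, edgeR adjusted p = 0.0183). ASK1-MKO liver 2 was above Lyz2-Cre liver 2, so the groups overlapped, and the call was lost in 4 of the 8 fits that left out a liver of either group. Sqle, squalene epoxidase, had 13.5, 46.6, 57.4 and 21.8 CPM in ASK1-MKO livers, against 83.3, 60.6, 68.0 and 70.8 CPM in Lyz2-Cre livers (log2 fold change -1.02, SE 0.30, edgeR adjusted p = 0.0446). Livers 1 and 4 of the ASK1-MKO group were far below livers 2 and 3, and the call was lost in 6 of those 8 fits and in the fit without the MDKO livers. Fdft1, squalene synthase, had 98.8, 117, 91.3 and 84.8 CPM in ASK1-MKO livers, against 192, 107, 128 and 154 CPM in Lyz2-Cre livers, just outside the threshold (log2 fold change -0.57, SE 0.18, edgeR adjusted p = 0.0581). Idi1, isopentenyl diphosphate isomerase, had 46.2, 179, 124 and 65.0 CPM in ASK1-MKO livers, against 155, 155, 196 and 194 CPM in Lyz2-Cre livers, and was not called (log2 fold change -0.76, SE 0.32, edgeR adjusted p = 0.163). Its ASK1-MKO livers spanned a wide range, with liver 2 inside the Lyz2-Cre values and livers 1 and 4 far below them. DESeq2 and limma-voom called Fdft1, and limma-voom called Idi1. Ggps1, which makes geranylgeranyl diphosphate for protein prenylation rather than sterols, stood at 7.45 to 10.9 CPM in ASK1-MKO livers, against 6.64 to 8.46 CPM in Lyz2-Cre livers, and was not called (log2 fold change 0.30, SE 0.17, edgeR adjusted p = 0.294).

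Along the sterol ring steps, 6 of 9 genes were called lower. Cyp51, the lanosterol demethylase, had 46.4, 109, 96.2 and 53.1 CPM in ASK1-MKO livers, against 181, 116, 161 and 169.5 CPM in Lyz2-Cre livers (log2 fold change -1.04, SE 0.24, edgeR adjusted p = 0.0129). Dhcr7, the reductase of 7-dehydrocholesterol, had 22.9, 35.5, 35.7 and 22.7 CPM in ASK1-MKO livers, against 63.8, 47.0, 60.1 and 56.2 CPM in Lyz2-Cre livers (log2 fold change -0.96, SE 0.17, edgeR adjusted p = 0.00273). Tm7sf2, a sterol reductase, had 10.1, 17.9, 11.9 and 11.9 CPM in ASK1-MKO livers, against 32.1, 18.4, 28.2 and 24.5 CPM in Lyz2-Cre livers (log2 fold change -0.99, SE 0.21, edgeR adjusted p = 0.00905). In all of these, no ASK1-MKO liver reached the lowest Lyz2-Cre liver. Msmo1, a sterol methyl oxidase, had 54.9, 121, 73.5 and 58.5 CPM in ASK1-MKO livers, against 205, 102, 149 and 175 CPM in Lyz2-Cre livers (log2 fold change -1.03, SE 0.25, edgeR adjusted p = 0.0166). Nsdhl, an X-linked sterol dehydrogenase, had 17.6, 44.0, 30.7 and 19.2 CPM in ASK1-MKO livers, against 62.5, 44.7, 49.6 and 45.1 CPM in Lyz2-Cre livers (log2 fold change -0.86, SE 0.23, edgeR adjusted p = 0.0263). Lss, lanosterol synthase, had 26.1, 42.1, 41.3 and 26.8 CPM in ASK1-MKO livers, against 61.5, 51.1, 55.5 and 53.1 CPM in Lyz2-Cre livers (log2 fold change -0.70, SE 0.18, edgeR adjusted p = 0.0217). Msmo1 overlapped through ASK1-MKO liver 2 and Lyz2-Cre liver 2, while Nsdhl and Lss did not overlap. Each of these 3 genes lost its call in 4 of the 8 fits that left out a liver, and Nsdhl and Lss also in the fit without the MDKO livers. The remaining 3 ring enzymes, Hsd17b7, Ebp and Sc5d, had log2 fold changes of -0.21, -0.28 and 0.05 and were not called.

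**Figure D3:**
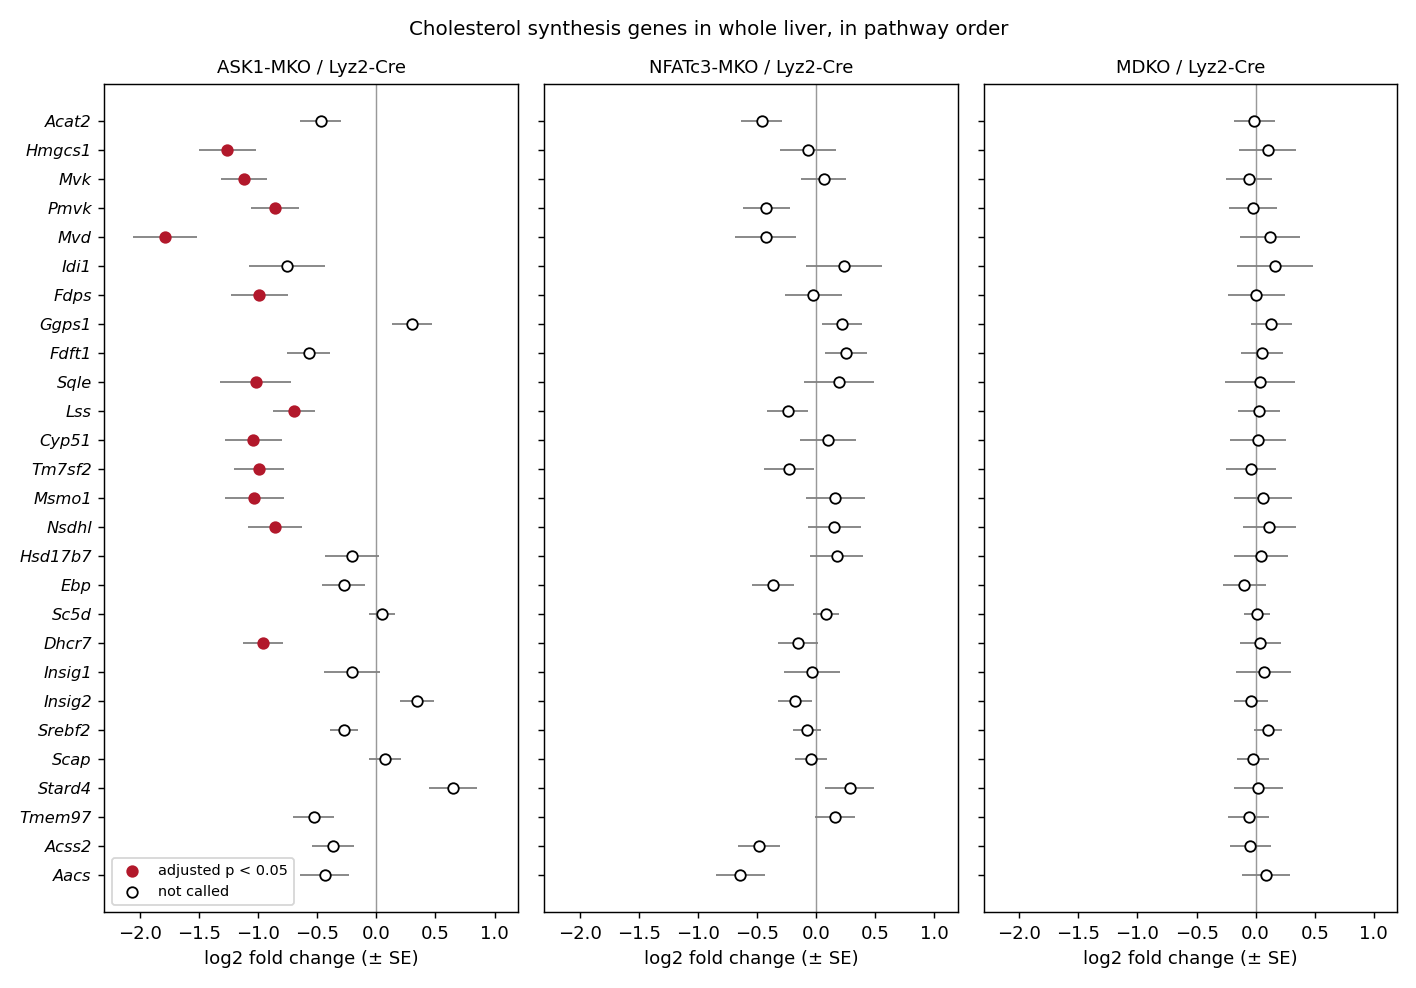
Log2 fold change with its SE for 27 genes in pathway order, from acetyl-CoA steps at the top to regulators and transport at the bottom, in ASK1-MKO, NFATc3-MKO and MDKO livers, each over Lyz2-Cre; filled points passed adjusted p < 0.05. The 12 filled points all stand in the ASK1-MKO panel and left of 0, and the MDKO points lie between -0.09 and 0.16.

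No regulator was called by edgeR in ASK1-MKO livers against Lyz2-Cre livers. Srebf2, the gene of SREBP2, had 31.5, 40.5, 36.2 and 32.7 CPM in ASK1-MKO livers, against 48.6, 39.3, 41.4 and 41.0 CPM in Lyz2-Cre livers (log2 fold change -0.27, SE 0.12, edgeR adjusted p = 0.172). Insig1, itself an SREBP2 target and the brake on its release, had 208, 197, 158 and 96.4 CPM in ASK1-MKO livers, against 189.7, 127, 225 and 219 CPM in Lyz2-Cre livers (log2 fold change -0.21, SE 0.23, edgeR adjusted p = 0.646). Scap, the escort, had 65.6, 56.8, 53.3 and 52.4 CPM in ASK1-MKO livers, against 64.5, 49.6, 52.4 and 49.9 CPM in Lyz2-Cre livers (log2 fold change 0.08, SE 0.14, edgeR adjusted p = 0.782). None of these 3 passed the test, and their groups overlapped. Insig2, the other brake, had 127, 85.1, 115 and 105 CPM in ASK1-MKO livers, against 72.3, 87.5, 80.8 and 99.2 CPM in Lyz2-Cre livers (log2 fold change 0.34, SE 0.15, edgeR adjusted p = 0.162). Stard4, a cytosolic sterol carrier and a known SREBP2 target, ran opposite to the enzymes, with 149, 151, 142 and 141 CPM in ASK1-MKO livers, against 116, 74.7, 88.8 and 92.9 CPM in Lyz2-Cre livers (log2 fold change 0.65, SE 0.21, edgeR adjusted p = 0.0599). All 4 ASK1-MKO livers were above all 4 Lyz2-Cre livers in Stard4, but the edgeR test was not passed; DESeq2 and limma-voom called it higher. Tmem97, a sterol-responsive membrane protein, had 111, 105, 135 and 112 CPM in ASK1-MKO livers, against 217, 152, 157 and 143 CPM in Lyz2-Cre livers (log2 fold change -0.53, SE 0.17, edgeR adjusted p = 0.0645). The Tmem97 groups did not overlap, and DESeq2 and limma-voom called this gene. Npc1l1, the intestinal sterol importer, was the only member that failed the filter on low counts, with 0 or 1 counts per liver in ASK1-MKO and Lyz2-Cre livers, 0 to 2 in MDKO livers and 1 to 7 in NFATc3-MKO livers, and no fold change is given.

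The 4 ASK1-MKO livers did not lie together. Livers 1 and 4 had a median log2 difference from the Lyz2-Cre mean of -0.95 and -0.94 over the 27 genes, against -0.48 in liver 3 and -0.28 in liver 2. Among the 12 called genes, liver 1 was lowest in 9 and liver 4 in the other 3, and liver 2 was highest in 10. Lyz2-Cre liver 2 was the lowest of its group in 24 of 27 genes, with a median of -0.30, about level with ASK1-MKO liver 2. Leaving out ASK1-MKO liver 1 left 6 of the 12 calls, and leaving out liver 4 left 7. Cyp51, Dhcr7, Hmgcs1, Mvd, Mvk and Tm7sf2 were called in each of the 8 fits that left out a liver of either group. With the MDKO livers out of the fit, 9 genes were called lower, and Lss, Nsdhl and Sqle were not.

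**Figure D4:**
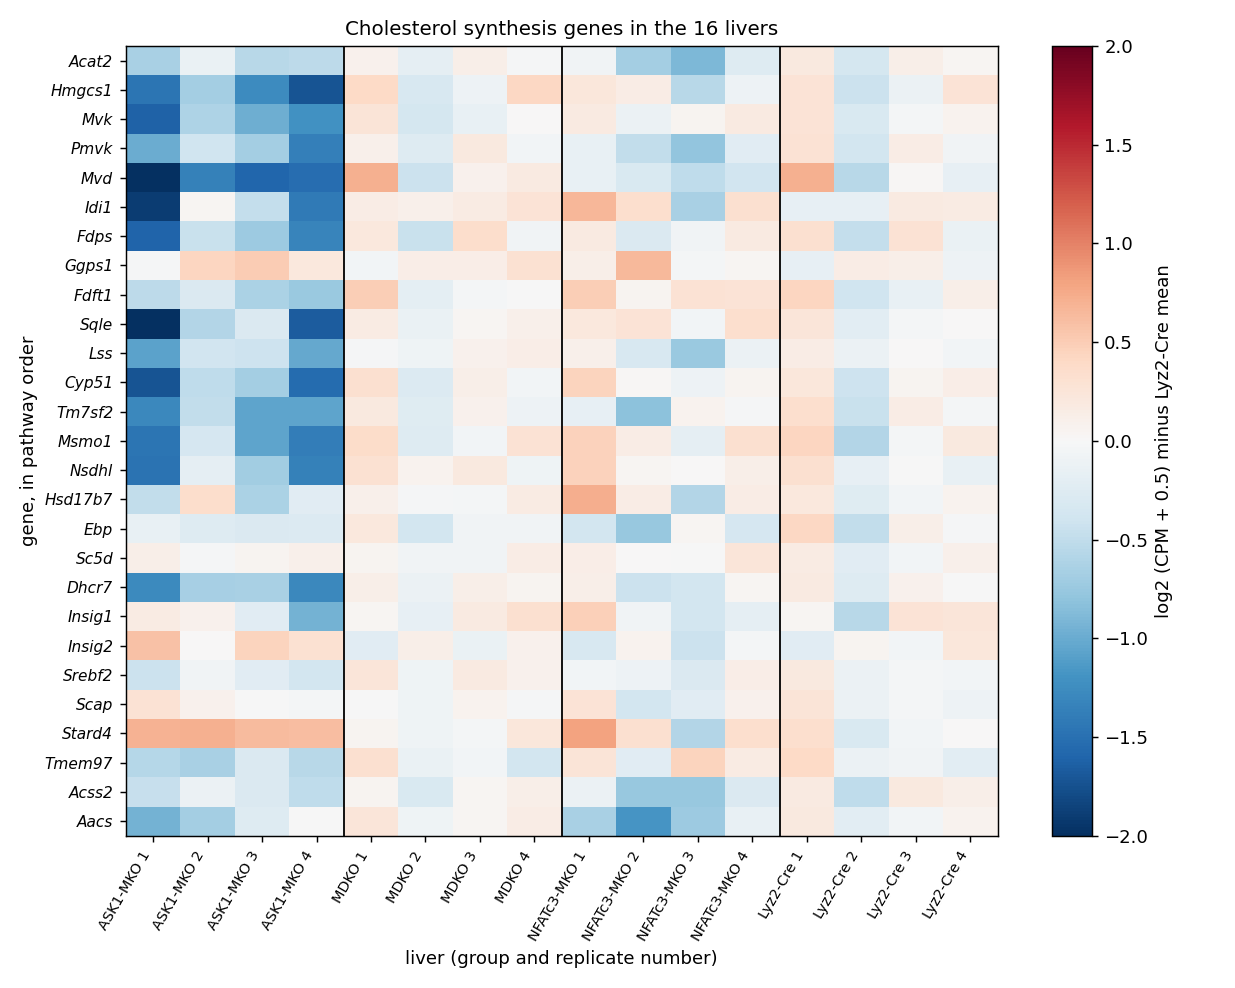
Each cell is log2 (CPM + 0.5) of a gene in a liver minus the Lyz2-Cre mean, genes in pathway order and livers by group; blue is below the Lyz2-Cre mean. ASK1-MKO livers 1 and 4 are the bluest columns, with medians of -0.95 and -0.94, and the MDKO and Lyz2-Cre blocks show the same column pattern by number, with liver 2 lowest in 22 and 24 of 27 genes.

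In NFATc3-MKO livers no such difference was called. None of the 27 genes was called higher or lower than in Lyz2-Cre livers by edgeR, where 3.77% and 4.67% of all genes were, and 3 genes had an unadjusted p below 0.05. Without the MDKO livers in the fit, 0 were called as well. DESeq2 called 1 gene lower (Aacs), as did limma-voom (Acss2). The median log2 fold change was -0.03. Hmgcs1 had 372, 354, 216 and 294 CPM in NFATc3-MKO livers and Mvd had 12.4, 11.1, 9.54 and 10.5 CPM, both overlapping the Lyz2-Cre livers given above. Aacs, which activates acetoacetate for lipid synthesis, had the smallest adjusted p, with 50.6, 34.6, 47.8 and 71.3 CPM in NFATc3-MKO livers, against 90.5, 68.4, 76.4 and 82.9 CPM in Lyz2-Cre livers (log2 fold change -0.64, SE 0.21, edgeR adjusted p = 0.061). NFATc3-MKO liver 4 overlapped the Lyz2-Cre values in Aacs. Acss2, which makes acetyl-CoA from acetate, had 69.2, 44.6, 44.2 and 61.8 CPM in NFATc3-MKO livers, against 85.7, 52.9, 86.4 and 82.2 CPM in Lyz2-Cre livers (log2 fold change -0.48, SE 0.18, edgeR adjusted p = 0.0922).

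Set directly against each other, ASK1-MKO livers were lower than NFATc3-MKO livers in 12 of the 27 genes and higher in 1, where 7.15% of all genes were called lower and 5.61% higher. Of the 12 called lower against Lyz2-Cre, 10 were among them (83.3% of either list), but both comparisons share the ASK1-MKO livers. Without the MDKO livers in the fit, 12 genes were called, and Insig2 was lost. Mvk had 19.3, 15.6, 17.8 and 19.4 CPM in NFATc3-MKO livers, all above the ASK1-MKO values given above (log2 fold change -1.18, SE 0.19, edgeR adjusted p = 0.00107). Sqle had 81.5, 85.4, 67.7 and 89.1 CPM in NFATc3-MKO livers, also above every ASK1-MKO liver (log2 fold change -1.22, SE 0.30, edgeR adjusted p = 0.0159). Cyp51 had 211, 158, 144 and 159.8 CPM and Msmo1 211, 169, 135 and 191 CPM in NFATc3-MKO livers, with log2 fold changes of ASK1-MKO over NFATc3-MKO of -1.14 (SE 0.24, edgeR adjusted p = 0.00595) and -1.20 (SE 0.25, edgeR adjusted p = 0.00595). Neither of these overlapped between ASK1-MKO and NFATc3-MKO livers. Fdft1 joined the list, with 201, 147, 174 and 173 CPM in NFATc3-MKO livers (log2 fold change -0.83, SE 0.18, edgeR adjusted p = 0.00785). Tmem97 did so too, with 197, 141, 225 and 186 CPM in NFATc3-MKO livers (log2 fold change -0.69, SE 0.17, edgeR adjusted p = 0.0159), and lost the call without ASK1-MKO liver 2. Insig2 was the gene called higher, with 127, 85.1, 115 and 105 CPM in ASK1-MKO livers, against 67.2, 88.3, 62.8 and 81.9 CPM in NFATc3-MKO livers (log2 fold change 0.52, SE 0.15, edgeR adjusted p = 0.0283). Its groups overlapped, and the call was lost in 4 of the 8 fits that left out a liver. The other 6 of the 12, Hmgcs1, Mvd, Fdps, Nsdhl, Dhcr7 and Tm7sf2, had log2 fold changes from -1.36 for Mvd to -0.76 for Tm7sf2. Their levels in NFATc3-MKO livers were 200.3 to 278 CPM for Fdps, 50.1 to 68.8 CPM for Nsdhl, 41.6 to 61.4 CPM for Dhcr7 and 14.1 to 26.4 CPM for Tm7sf2. The Tm7sf2 groups overlapped, and its call was lost in 5 of the 8 fits that left out a liver. The Fdps call was lost in 2 of them.

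Markers of other cells differed between the same livers. Lipid-associated and monocyte-derived macrophage genes were called lower in 4 of 6, with a summed level of 81.7 to 182 CPM in ASK1-MKO livers, against 122 to 809 CPM in NFATc3-MKO livers. Neutrophil markers were called lower in 3 of 4 tested, with a summed level of 2.97 to 4.20 CPM in ASK1-MKO livers, against 7.70 to 42.5 CPM in NFATc3-MKO livers. Erythroid markers were called lower in 4 of 4, with 125 to 245 CPM in ASK1-MKO livers, against 284 to 461 CPM in NFATc3-MKO livers. Cholangiocyte markers were called lower in 2 of 4, with 5.48 to 16.0 CPM in ASK1-MKO livers, against 10.4 to 34.6 CPM in NFATc3-MKO livers. Hepatocyte markers were called higher in 2 of 8 and lower in none. Kupffer cell markers were called higher in 1 of 6 and lower in 1, and 5 of the 6 had log2 fold changes above 0. Their summed level was 190 to 280 CPM in ASK1-MKO livers, against 174 to 227 CPM in NFATc3-MKO livers. Pan-macrophage markers were called lower in 1 of 6 and stellate markers in 1 of 4. No marker of these lists was at 0 in either group, and their part in the result was not tested.

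In MDKO livers, which lack both genes by label, no difference from the control was called. No gene of the 27 was called against Lyz2-Cre in either direction by edgeR, none had an unadjusted p below 0.05, and the log2 fold changes ran from -0.09 to 0.16. No gene at all was called in this comparison (0% higher and 0% lower), with 35 of 13309 at an unadjusted p below 0.05, and a fit with the same-numbered livers paired as a replicate block also called none of the 27. Mvd had 23.0, 10.1, 14.7 and 15.7 CPM in MDKO livers, against 22.9, 9.22, 14.0 and 12.3 CPM in Lyz2-Cre livers of the same numbers. Fdps had 283, 179, 311 and 232 CPM in MDKO livers, against 305, 175, 299 and 223 CPM in Lyz2-Cre livers. The values followed each other number by number, as in the distances above.

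Against ASK1-MKO livers, MDKO livers were higher in 13 of the 27 genes and lower in none, where 3.46% of all genes were called higher and 4.26% lower. All 12 genes called lower in ASK1-MKO against Lyz2-Cre were among them, and Fdft1 was added. Hmgcs1 had 418, 254, 296 and 421 CPM in MDKO livers (log2 fold change 1.36, SE 0.24, edgeR adjusted p = 0.00254), with no overlap with ASK1-MKO livers. Mvk had 20.4, 13.2, 15.3 and 17.2 CPM in MDKO livers (log2 fold change 1.06, SE 0.20, edgeR adjusted p = 0.00339), and Mvd gave 1.91 (SE 0.27, edgeR adjusted p = 0.000507) on the log2 scale. Dhcr7 had 61.5, 52.1, 61.5 and 58.5 CPM in MDKO livers (log2 fold change 1.00, SE 0.17, edgeR adjusted p = 0.00216). These MDKO values lay close to those of the same-numbered Lyz2-Cre livers. The other 9 had means of 27.4 ± 3.66 CPM for Pmvk, 72.6 ± 6.43 for Sqle, 56.3 ± 3.93 for Lss, 159 ± 27.7 for Cyp51, 25.1 ± 3.41 for Tm7sf2, 164 ± 32.6 for Msmo1, 54.8 ± 6.25 for Nsdhl, 251 ± 58.4 for Fdps and 151 ± 33.7 for Fdft1 in MDKO livers (mean ± SD, n = 4). The Fdft1 and Sqle calls were each lost in 6 of the 8 fits that left out a liver, and the Lss call in 4. Without ASK1-MKO liver 1, 6 genes were called, and without MDKO liver 3, the shallowest library, 8 were.

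Against NFATc3-MKO livers, MDKO livers differed in 1 gene, called higher, where 4.06% of all genes were called higher and 3.29% lower. Aacs had 94.2, 74.5, 81.3 and 87.9 CPM in MDKO livers, against 50.6, 34.6, 47.8 and 71.3 CPM in NFATc3-MKO livers (log2 fold change 0.73, SE 0.21, edgeR adjusted p = 0.0418). MDKO and NFATc3-MKO livers were apart in Aacs, but the call was lost in 7 of the 8 fits that left out a liver. The interaction, the MDKO level minus what both single knockouts would add up to on the log2 scale, was called above 0 in 10 genes and below 0 in 1, where 8.17% and 8% of all genes were. It was 2.33 (SE 0.37, edgeR adjusted p = 0.000661) for Mvd and 1.43 (SE 0.34, edgeR adjusted p = 0.00911) for Hmgcs1. Pmvk, Tm7sf2, Aacs, Dhcr7, Mvk, Lss, Acat2 and Acss2 followed, from 1.26 for Pmvk to 0.81 for Acss2, whose call was lost in 11 of 16 fits that left out a liver. Stard4 was the gene below 0, at -0.91 (SE 0.29, edgeR adjusted p = 0.0411), and its call was lost in 14 of those 16 fits. For Acat2, Aacs and Acss2 both single knockouts had point estimates below the control, at -0.47, -0.44 and -0.37 in ASK1-MKO and -0.46, -0.64 and -0.48 in NFATc3-MKO, none of them called by edgeR. Limma-voom called Acat2 and Acss2 in ASK1-MKO and Acss2 in NFATc3-MKO livers, and DESeq2 called Aacs in NFATc3-MKO livers. Acat2 had 75.0, 61.7, 76.1 and 69.2 CPM in MDKO livers and 66.7, 43.6, 37.5 and 58.7 CPM in NFATc3-MKO livers. Acss2 had 78.6, 60.9, 77.4 and 81.3 CPM in MDKO livers, against 54.7, 69.4, 61.5 and 52.6 CPM in ASK1-MKO livers. Stard4 had 95.5, 86.5, 89.1 and 107 CPM in MDKO livers and 162, 115, 61.3 and 116 CPM in NFATc3-MKO livers, where liver 1 was high and liver 3 low. Because the MDKO livers track the Lyz2-Cre livers by number, a double knockout effect and the relation between these libraries cannot be told apart. The fit took all 16 livers as independent, and both groups enter the interaction with the same sign. The SE and adjusted p of the interaction are therefore likely too small.

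Values of the regulators in the other liver groups follow. Srebf2 had 50.3, 39.8, 48.1 and 45.0 CPM in MDKO livers and 41.0, 39.5, 34.5 and 46.4 CPM in NFATc3-MKO livers. Insig1 had 191, 165, 209.7 and 232 CPM in MDKO livers and 259, 177, 143 and 163 CPM in NFATc3-MKO livers. Scap had 53.5, 50.4, 56.3 and 52.9 CPM in MDKO livers and 65.5, 41.7, 46.1 and 57.2 CPM in NFATc3-MKO livers. By edgeR, none of these 3 genes was called in any of the 6 comparisons between liver groups or in the interaction, while Srebf2 was called between MDKO and ASK1-MKO livers by DESeq2 and limma-voom, and between ASK1-MKO and NFATc3-MKO livers by limma-voom. Insig2 had 72.1, 91.3, 77.0 and 89.9 CPM in MDKO livers.

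In BMDM cultures, the NFATc3-MKI libraries had a lower level of most of the pathway. Of 27 tested genes, 20 were called lower than in their controls and 1 higher, where 16.8% of all 13363 genes were called lower and 16.5% higher. The median log2 fold change was -0.64, and in 20 genes all 3 NFATc3-MKI cultures lay below all 3 controls, where 22.9% of all genes did, and in 2 all lay above, where 22.9% did. These cultures carried little of several macrophage markers: Lyz2 stood at 439 to 503 CPM in NFATc3-MKI cultures and 363 to 416 CPM in their controls. Adgre1 was at 32.6 to 36.3 CPM in NFATc3-MKI cultures and 30.0 to 32.2 CPM in their controls, and Mertk at 0 to 0.12 CPM in NFATc3-MKI cultures and 0 to 0.13 CPM in their controls. Cd68 was higher, at 896 to 1033 CPM in NFATc3-MKI cultures and 706 to 824 CPM in their controls. Csf1r was at 345 to 407 CPM in NFATc3-MKI cultures and 274 to 287 CPM in their controls. Fcgr1 was at 58.3 to 68.2 CPM in NFATc3-MKI cultures and 22.2 to 24.5 CPM in their controls. In the other set of cultures, Lyz2 was at 27898 to 29899 CPM in ASK1-MKI cultures and 26581 to 28944 CPM in their controls. Cd68 was at 1867 to 1888 CPM in ASK1-MKI cultures and 1680 to 1709 CPM in their controls. Of the 5 tested genes among 6 macrophage markers, 4 were called higher in NFATc3-MKI cultures, and the summed level of the 6 was 1800 to 1974 CPM in NFATc3-MKI cultures, against 1430.0 to 1528 CPM in controls. Of 6 lipid-associated and monocyte-derived macrophage genes, 4 were tested and 2 called higher. The summed level of the 6 was 17899 to 22511 CPM in NFATc3-MKI cultures, against 4827 to 5442 CPM in controls. The 4 tested genes had log2 fold changes from 0.15 to 2.17 with a median of 0.27, so the sum does not stand for each gene. No marker of either list was at 0 in every culture of a group. Their part in the result was not tested.

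Insig1, Srebf2, Stard4 and Insig2 were lower in these cells and Scap was higher. Insig1 had 143, 130.5 and 123 CPM in the 3 NFATc3-MKI cultures, against 416, 409.7 and 431 CPM in the 3 controls (log2 fold change -1.66, SE 0.09, edgeR adjusted p = 9.17e-13). Srebf2 had 298, 249 and 263 CPM in NFATc3-MKI cultures, against 454, 496 and 465 CPM in controls (log2 fold change -0.80, SE 0.09, edgeR adjusted p = 1.88e-07). Stard4 had 55.2, 54.1 and 50.5 CPM in NFATc3-MKI cultures, against 112, 111 and 115 CPM in controls (log2 fold change -1.08, SE 0.09, edgeR adjusted p = 2.67e-09). None of these 3 genes overlapped between the groups, and the replicates stood close together. Insig2 had 32.6, 34.2 and 32.7 CPM in NFATc3-MKI cultures, against 45.4, 41.4 and 40.1 CPM in controls (log2 fold change -0.35, SE 0.11, edgeR adjusted p = 0.013). Scap, the gene called higher, had 48.4, 44.9 and 48.8 CPM in NFATc3-MKI cultures, against 37.6, 38.1 and 40.6 CPM in controls (log2 fold change 0.29, SE 0.10, edgeR adjusted p = 0.0316). The groups of both genes were apart, but the Scap call was lost in 5 of the 6 fits that left out a culture.

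**Figure D5:**
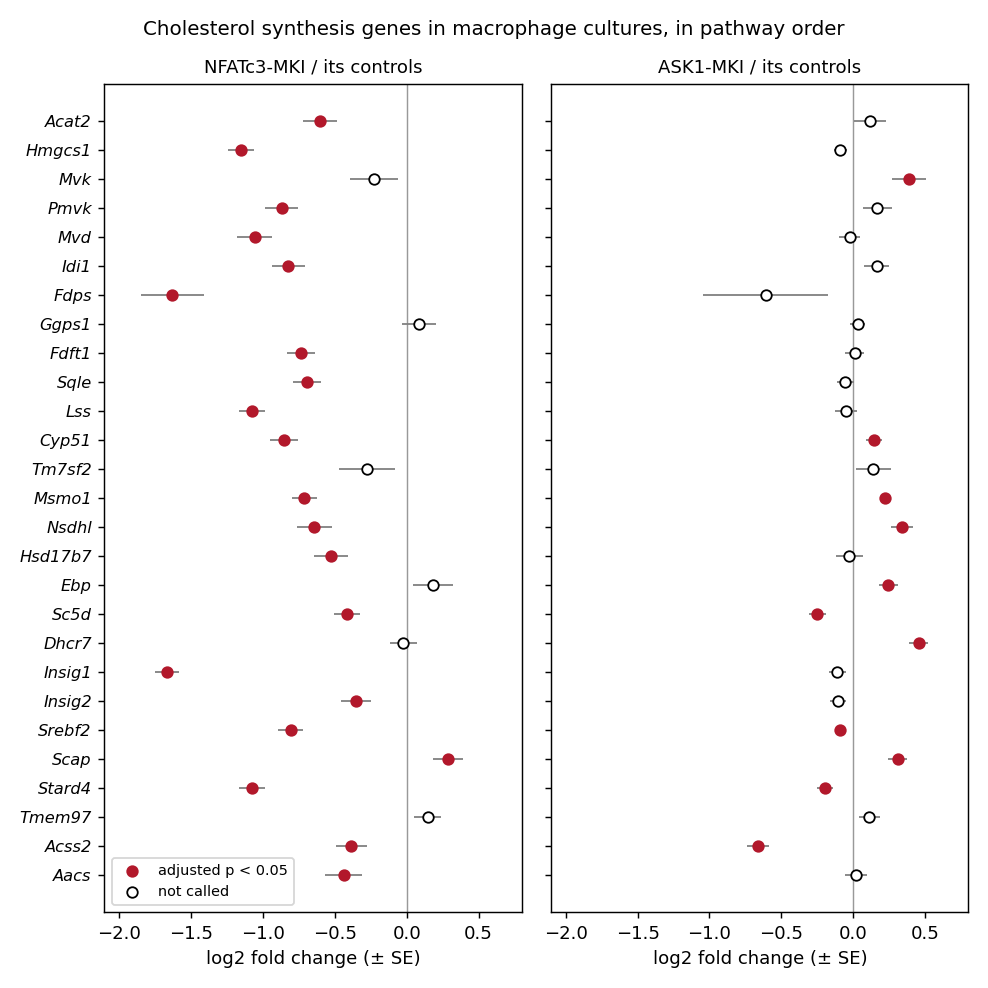
Log2 fold change with its SE for 27 genes in pathway order in NFATc3-MKI and ASK1-MKI cultures, each over its own 3 controls; filled points passed adjusted p < 0.05. In the NFATc3-MKI panel 20 of 21 filled points lie left of 0, the lowest at -1.66 for Insig1; in the ASK1-MKI panel 7 lie right of 0 and 4 left, all within 0.66 of it.

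Most mevalonate steps were lower, from the first enzyme on. Acat2 had 27.4, 27.5 and 23.6 CPM in NFATc3-MKI cultures, against 35.3, 42.4 and 41.3 CPM in controls (log2 fold change -0.60, SE 0.12, edgeR adjusted p = 0.000333). Hmgcs1 had 77.0, 77.1 and 66.3 CPM in NFATc3-MKI cultures, against 163, 161 and 166 CPM in controls (log2 fold change -1.15, SE 0.09, edgeR adjusted p = 8.64e-10). Both were lower in every NFATc3-MKI culture than in every control. Pmvk had 32.8, 23.7 and 31.4 CPM in NFATc3-MKI cultures, against 52.9, 55.1 and 52.3 CPM in controls (log2 fold change -0.87, SE 0.12, edgeR adjusted p = 4.29e-06). Mvd had 58.9, 38.5 and 53.1 CPM in NFATc3-MKI cultures, against 99.0, 115 and 98.2 CPM in controls (log2 fold change -1.06, SE 0.12, edgeR adjusted p = 1.59e-06). Idi1 had 27.7, 31.5 and 24.0 CPM in NFATc3-MKI cultures, against 47.0, 51.6 and 48.5 CPM in controls (log2 fold change -0.82, SE 0.11, edgeR adjusted p = 6.47e-06). Culture 2 was the lowest NFATc3-MKI culture in Pmvk and Mvd and the highest in Idi1, and no group overlapped. Fdps had only 5.49, 2.80 and 4.97 CPM in NFATc3-MKI cultures, against 16.1, 12.3 and 12.5 CPM in controls (log2 fold change -1.63, SE 0.22, edgeR adjusted p = 4.52e-06). Fdps is known to have processed copies, and how reads shared with such copies were counted is not stated in the sources used, so its level in cultures is uncertain. Mvk, lower in ASK1-MKO livers, had 13.5, 13.6 and 12.1 CPM in NFATc3-MKI cultures, against 11.2, 16.6 and 17.9 CPM in controls, and was not called (log2 fold change -0.23, SE 0.17, edgeR adjusted p = 0.315).

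Squalene and lanosterol steps were lower as well. Fdft1 had 67.0, 58.0 and 55.1 CPM in NFATc3-MKI cultures, against 97.5, 94.5 and 107 CPM in controls (log2 fold change -0.73, SE 0.10, edgeR adjusted p = 3.77e-06). Sqle had 65.8, 57.5 and 68.0 CPM in NFATc3-MKI cultures, against 92.2, 113 and 103 CPM in controls (log2 fold change -0.69, SE 0.10, edgeR adjusted p = 1.07e-05). Lss had 84.7, 70.0 and 79.1 CPM in NFATc3-MKI cultures, against 163, 156 and 172 CPM in controls (log2 fold change -1.07, SE 0.09, edgeR adjusted p = 3.84e-09). In these 3 steps, which make and close squalene, all NFATc3-MKI cultures lay below all controls.

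Of the genes that act beyond lanosterol, 5 were called lower. Cyp51 had 57.4, 64.2 and 49.0 CPM in NFATc3-MKI cultures, against 102, 103 and 103 CPM in controls (log2 fold change -0.85, SE 0.10, edgeR adjusted p = 5.87e-07). Msmo1 had 95.4, 97.4 and 93.3 CPM in NFATc3-MKI cultures, against 149, 164 and 156 CPM in controls (log2 fold change -0.71, SE 0.09, edgeR adjusted p = 8.57e-07). Nsdhl had 18.4, 19.1 and 17.7 CPM in NFATc3-MKI cultures, against 29.0, 30.0 and 27.0 CPM in controls (log2 fold change -0.64, SE 0.12, edgeR adjusted p = 0.000284). The demethylation steps were thus apart as well. Hsd17b7, a keto-sterol reductase, had 20.4, 19.8 and 21.0 CPM in NFATc3-MKI cultures, against 29.0, 30.1 and 29.0 CPM in controls (log2 fold change -0.52, SE 0.12, edgeR adjusted p = 0.00143). Sc5d, the sterol desaturase, had 58.8, 61.3 and 59.2 CPM in NFATc3-MKI cultures, against 84.2, 80.6 and 74.3 CPM in controls (log2 fold change -0.41, SE 0.09, edgeR adjusted p = 0.00134). Both were lower with no overlap. Of the acetyl-CoA genes, Acss2 had 50.9, 38.1 and 44.5 CPM in NFATc3-MKI cultures, against 61.3, 57.2 and 55.9 CPM in controls (log2 fold change -0.39, SE 0.11, edgeR adjusted p = 0.00797). Aacs had 21.5, 18.7 and 19.6 CPM in NFATc3-MKI cultures, against 23.3, 29.4 and 28.1 CPM in controls (log2 fold change -0.44, SE 0.13, edgeR adjusted p = 0.0111). The Aacs call was lost in 2 of 6 fits that left out a culture. Ebp, Dhcr7, Tm7sf2, Ggps1 and Tmem97 were not called, with log2 fold changes of 0.18, -0.02, -0.28, 0.09 and 0.15.

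Of the 12 genes called lower in ASK1-MKO livers, 9 (75%) were called lower in NFATc3-MKI cultures, which is 45% of the 20 there. Of all 27 tested genes 20 were called lower in those cultures, a share close to that 75%, so nothing is read from this overlap. Those 9 were Cyp51, Fdps, Hmgcs1, Lss, Msmo1, Mvd, Nsdhl, Pmvk and Sqle. The members left out differed: Insig1 and Srebf2 passed the test in NFATc3-MKI cultures and not in ASK1-MKO livers, Dhcr7, Mvk and Tm7sf2 passed in ASK1-MKO livers and not in those cultures, and Stard4 was called lower in NFATc3-MKI cultures (-1.08) with a positive value in ASK1-MKO livers (0.65). These effects stand in different tables and the difference between them was not tested.

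ASK1-MKI cultures showed small differences in both directions. Of 27 tested genes, 7 were called higher and 4 lower than in their controls, where 24.6% of all 11380 genes were called higher and 24.5% lower, so both shares were near those of all genes. In 8 genes all ASK1-MKI cultures lay above all controls, where 27.6% of all genes did, and in 4 all lay below, where 27% did. The median log2 fold change was 0.02. The replicates differed by little more than counting noise, with a chi-square per degree of freedom of 1.6 to 2.03. No gene passed when a fold of at least 2 was also asked. The ASK1-MKI cultures had 0 counts over 4 genes of the Y chromosome (Ddx3y, Eif2s3y, Kdm5d and Uty), against 4088 to 4364 in their controls, so sex and genotype cannot be told apart in this set, and Nsdhl and Ebp lie on the X chromosome. Neutrophil markers summed to 158 to 165 CPM in ASK1-MKI cultures, against 1062 to 1115 CPM in controls, with 3 of 3 tested markers called lower and none of the 5 at 0. Mmp8 made up most of this sum, at 129 to 136 CPM in ASK1-MKI cultures, against 979 to 1028 CPM in controls. S100a8 stood at 27.0 to 28.2 CPM in ASK1-MKI cultures, against 73.0 to 76.4 CPM in controls. Kupffer cell markers summed to 288 to 307 CPM in ASK1-MKI cultures, against 879 to 903 CPM in controls, with 3 of 3 tested called lower and Clec4f at 0 in both groups. B cell markers summed to 2.07 to 3.18 CPM in ASK1-MKI cultures, against 7.28 to 9.63 CPM in controls, with 3 of 3 called lower and none at 0. The part of these markers in the results was not tested.

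Acss2 had the largest difference of the 27 genes in this set, with 16.0, 16.6 and 16.8 CPM in ASK1-MKI cultures, against 24.7, 26.3 and 27.3 CPM in controls (log2 fold change -0.66, SE 0.07, edgeR adjusted p = 6.22e-14). Dhcr7 had 29.6, 28.0 and 30.7 CPM in ASK1-MKI cultures, against 22.3, 20.6 and 21.6 CPM in controls (log2 fold change 0.45, SE 0.07, edgeR adjusted p = 5.76e-09). Both groups were apart in these genes, Acss2 lower and Dhcr7 higher. Mvk had 9.86, 10.0 and 9.47 CPM in ASK1-MKI cultures, against 8.55, 5.48 and 8.34 CPM in controls (log2 fold change 0.39, SE 0.12, edgeR adjusted p = 0.00383), and control 2 alone stood low. Without that control the Mvk call was lost (edgeR adjusted p = 0.159) and its log2 fold change was 0.21. Nsdhl had 22.7, 22.3 and 22.2 CPM in ASK1-MKI cultures, against 17.4, 17.7 and 17.9 CPM in controls (log2 fold change 0.34, SE 0.08, edgeR adjusted p = 6.59e-05). Ebp, the sterol isomerase, had 32.9, 33.4 and 32.8 CPM in ASK1-MKI cultures, against 28.9, 25.2 and 29.5 CPM in controls (log2 fold change 0.24, SE 0.06, edgeR adjusted p = 0.000626). With genes of the X and Y chromosomes left out of the fit, 5 genes were called higher and 4 lower.

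The other 6 called genes differed by a log2 of 0.31 or less in size. Scap had 30.9, 33.7 and 28.9 CPM in ASK1-MKI cultures, against 25.0, 23.6 and 27.0 CPM in controls (log2 fold change 0.31, SE 0.07, edgeR adjusted p = 3.33e-05). Msmo1 had 87.1, 88.5 and 89.8 CPM in ASK1-MKI cultures, against 78.3, 77.3 and 72.3 CPM in controls (log2 fold change 0.22, SE 0.04, edgeR adjusted p = 7.29e-07). Both were higher in every ASK1-MKI culture than in any control. Cyp51 had 44.9, 42.9 and 38.9 CPM in ASK1-MKI cultures, against 39.3, 37.6 and 37.9 CPM in controls (log2 fold change 0.14, SE 0.05, edgeR adjusted p = 0.0242). Its groups overlapped, and the call was lost in 4 of 6 fits that left out a culture. Sc5d had 31.4, 28.4 and 31.5 CPM in ASK1-MKI cultures, against 36.6, 35.3 and 36.7 CPM in controls (log2 fold change -0.25, SE 0.06, edgeR adjusted p = 0.000191). Stard4 had 30.9, 33.5 and 32.4 CPM in ASK1-MKI cultures, against 36.6, 37.3 and 37.2 CPM in controls (log2 fold change -0.20, SE 0.06, edgeR adjusted p = 0.00266). Srebf2 had 91.7, 91.9 and 88.2 CPM in ASK1-MKI cultures, against 99.2, 94.7 and 95.4 CPM in controls (log2 fold change -0.09, SE 0.04, edgeR adjusted p = 0.0366). All 3 were lower without overlap, Srebf2 by the least, and its call was lost in 2 of 6 such fits. Fdps stood at 0.238 to 0.637 CPM in ASK1-MKI cultures, from 4 to 11 counts, against 0.425 to 1.04 CPM in controls, from 8 to 18 counts, and was not called. The other 15 tested genes were not called and had log2 fold changes within 0.17 of 0.

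Per kilobase of exon, the sterol genes ranked differently in the control samples of the 3 tables, which were counted and scaled separately. In Lyz2-Cre livers the highest levels were 122 ± 24.6 CPM per kilobase for Tmem97, 70.5 ± 15.8 for Hmgcs1, 64.7 ± 7.71 for Sc5d, 61.5 ± 14.5 for Insig1 and 59.5 ± 14.8 for Fdps (mean ± SD, n = 4). The last 4 of these lay within their spread of each other. In the controls for NFATc3-MKI, Insig1 led with 136 ± 3.48 CPM per kilobase, followed by Srebf2 with 65.7 ± 2.98 and Mvd with 56.0 ± 5.14 (n = 3). In the controls for ASK1-MKI, all genes lay at 15.6 ± 0.671 or less, the level of Tmem97, and Srebf2 stood at 13.4 ± 0.340 CPM per kilobase (n = 3). Srebf2 was at 5.93 ± 0.571 in Lyz2-Cre livers. Npc1l1 stayed below 0.13 CPM per kilobase in the controls of all 3 tables.

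Genes around the pathway were read from lists chosen with earlier results of these data known. Among 13 further sterol-sensing and SREBP-processing genes, 2 were called higher in ASK1-MKO livers than in Lyz2-Cre livers and none lower: Rnf145, a ubiquitin ligase of the sterol-sensing system, at 0.52 (SE 0.14, edgeR adjusted p = 0.0257) on the log2 scale, and Mbtps1, the site-1 protease that cuts SREBPs, at 0.43 (SE 0.12, edgeR adjusted p = 0.029). In NFATc3-MKI cultures 3 of the 13 were called higher and 4 lower, with Rnf145 at -1.05 (SE 0.09, edgeR adjusted p = 4.78e-09) and Erlin1 at 0.53 (SE 0.10, edgeR adjusted p = 0.000331). Among 14 tested further cholesterol synthesis, uptake and SREBP-responsive genes, 1 was called higher and 2 lower in ASK1-MKO livers. The higher gene was Lpin1, a phosphatidate phosphatase, at 1.58 (SE 0.34, edgeR adjusted p = 0.00991). Of 13 such genes tested in NFATc3-MKI cultures, 1 was called higher and 7 lower, with Lpin1 at -0.91 (SE 0.09, edgeR adjusted p = 6.04e-08). None of 15 genes of the non-sterol mevalonate branches (ubiquinone, dolichol and prenylation) was called in ASK1-MKO livers by edgeR, with 5 at an unadjusted p below 0.05, and 4 were called higher and 1 lower in NFATc3-MKI cultures.

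Fatty acid synthesis genes are controlled by SREBP1, the sister factor of SREBP2. Of 12 tested, 1 was called higher in ASK1-MKO livers and none lower. Scd1, the stearoyl-CoA desaturase, had 1371, 565, 1397 and 1135 CPM in ASK1-MKO livers, against 230.5, 412, 426 and 327 CPM in Lyz2-Cre livers (log2 fold change 1.68, SE 0.35, edgeR adjusted p = 0.00806). In NFATc3-MKO livers 2 were called lower, Scd1 at -1.78 (SE 0.36, edgeR adjusted p = 0.00818) and the elongase Elovl5 at -0.79 (SE 0.17, edgeR adjusted p = 0.0114). In NFATc3-MKI cultures 8 of 11 were called lower and none higher, with Scd1 at -1.02 (SE 0.09, edgeR adjusted p = 6.96e-09) and Fasn, fatty acid synthase, at -0.61 (SE 0.10, edgeR adjusted p = 2.77e-05). Of 15 genes of cholesterol esters, traffic and the bile acid outlet, 3 were called higher and 2 lower in ASK1-MKO livers. Cyp7a1, which starts the main route from cholesterol to bile acids and is named after its values were seen, had 85.5, 153, 47.9 and 111 CPM in ASK1-MKO livers, against 319, 238, 354 and 384 CPM in Lyz2-Cre livers (log2 fold change -1.70, SE 0.33, edgeR adjusted p = 0.00499), and Cyp8b1, which sets the cholic acid share, gave -2.08 (SE 0.39, edgeR adjusted p = 0.00415). Npc1, the lysosomal sterol exporter, was higher, at 0.61 (SE 0.12, edgeR adjusted p = 0.00419), as was the sterol transporter gene Gramd1c, at 1.11 (SE 0.14, edgeR adjusted p = 0.000233). Cyp7a1 was also called lower in NFATc3-MKO livers, at -1.27 (SE 0.33, edgeR adjusted p = 0.0291). In NFATc3-MKI cultures 2 of 10 were called higher and none lower, with Soat2, a cholesterol esterifying enzyme, at 1.51 (SE 0.14, edgeR adjusted p = 1.14e-08). Of 10 genes of the sterol receptor LXR, its targets and efflux, none was called in ASK1-MKO livers by edgeR, with 5 at an unadjusted p below 0.05. In NFATc3-MKI cultures 1 of 6 tested was called higher and 2 lower, with the exporter Abcg1 at -0.54 (SE 0.10, edgeR adjusted p = 0.000128). In MDKO livers no gene of these lists was called against Lyz2-Cre by edgeR.

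Clock genes, whose liver transcripts cycle over the day, differed in the same livers. Of 15 clock genes, 7 were called higher and 3 lower in ASK1-MKO livers than in Lyz2-Cre livers, and their summed level was 618 to 745 CPM in ASK1-MKO livers, against 428 to 496 CPM in Lyz2-Cre livers. Nr1d2, a repressor of the clock, had 184, 168, 174 and 145 CPM in ASK1-MKO livers, against 64.1, 70.5, 46.5 and 53.7 CPM in Lyz2-Cre livers (log2 fold change 1.51, SE 0.17, edgeR adjusted p = 0.000117). Per1 and Nr1d1 were called higher, at 1.07 and 1.78 on the log2 scale. In NFATc3-MKO livers 3 clock genes were called higher and 2 lower, with Nr1d1 at 1.53 (SE 0.29, edgeR adjusted p = 0.00704) and Cry1 at -1.08 (SE 0.17, edgeR adjusted p = 0.00321). In MDKO livers none was called by edgeR. In NFATc3-MKI cultures none of 13 tested was called higher and 10 were called lower. The hour of liver collection was not given in any source used, and the part of the clock difference in the cholesterol gene result was not tested. Of 8 hepatocyte markers, none was called in ASK1-MKO livers by edgeR, with 1 at an unadjusted p below 0.05. Of 4 erythroid markers, 2 were called lower there, with a summed level of 125 to 245 CPM in ASK1-MKO livers, against 251 to 390 CPM in Lyz2-Cre livers and none at 0, and their part was not tested.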

How the data were processed

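Messenger RNA was sequenced from 16 livers and 12 macrophage cultures with strand-marking libraries, per the labels' protocols. The submitters' processing notes name HISAT2 and mm10; neither a counting program nor a strand setting is given in the sources used. The authors deposited expected counts for livers (85.42% of values whole; rounded here) and whole-number counts for both sets of cultures. No column of per-sample values was left unused (0). Of the features, 16877, 52073 and 21851 in the 3 tables matched GENCODE M21 names or IDs.

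Each table was fitted separately in R 4.3.3 with edgeR 4.0.16 (expression filter, trimmed-mean scaling, robust quasi-likelihood F test, Benjamini-Hochberg adjustment over all 13309, 13363 and 11380 genes tested, threshold 0.05), all 16 livers in 1 fit. SE is the log2 fold change divided by the square root of F. Total counts per library ranged from 7693464 to 30834547, and low counts limit precision most for Fdps in cultures. On simulated data with known changes the script was tested before use. Alternatives were DESeq2 1.42.0, limma 3.58.1 voom, other scaling, no filter, a fold limit of 2, only the groups compared, a replicate block and leaving out each library. Deviations from group means of same-numbered livers correlated at 0.377 to 0.687 for MDKO and Lyz2-Cre and met the pairing criterion (each above 0.1) for no other pair of groups; the pairing comes from the data and the shared numbers, not from a stated design.

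The members and lists were chosen with earlier results of these data known. All members are accounted for; values per library are given for members called in a comparison and for Srebf2, Scap, Insig1, Insig2 and Npc1l1, and at most 3 called genes per other list. Gene positions follow GENCODE M21 (GRCm38, mm10). Some genes of the further lists are counted but not named here. No set test was run.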

Additional observations from a re-analysis of the deposited data

Results flagged for a closer look

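Acss2 in Lyz2-Cre livers stood apart from its group in 1 liver: replicate 2 had 52.9 CPM, against 82.2 to 86.4 CPM in the other 3. It was the only flag among 108 groups of 4 livers, where chance flags about 1 in 20.

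The interaction of both knockouts in livers was called in 11 genes (edgeR, all 16 livers). The log2 interaction was 2.33 for Mvd, 1.43 for Hmgcs1, 1.26 for Pmvk, 1.18 for Tm7sf2, 1.16 for Aacs, 1.15 for Dhcr7, 0.99 for Mvk, 0.96 for Lss, 0.92 for Acat2, 0.81 for Acss2 and -0.91 for Stard4. The Stard4 and Acss2 calls were lost in 14 and 11 of the 16 fits that left out a liver. The MDKO livers in this test lay nearest to the same-numbered Lyz2-Cre livers, so an effect of both knockouts and the relation between these libraries cannot be told apart. The fit took these livers as independent, so the adjusted p of the interaction is likely too small.

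In the cultures, 3 genes lay lower in each NFATc3-MKI culture and higher in each ASK1-MKI culture than in all of their own controls. Over all genes, 22.9% lay lower in this way in NFATc3-MKI and 27.6% higher in ASK1-MKI cultures. The log2 fold changes were -0.82 in NFATc3-MKI and 0.16 in ASK1-MKI for Idi1, -0.71 and 0.22 for Msmo1, and -0.64 and 0.34 for Nsdhl. Idi1 was not called in ASK1-MKI cultures (edgeR adjusted p = 0.108). The difference between both sets was not tested, since they stand in separate tables.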

How the results depend on the processing

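Of the 647 values of single called genes under an alternative, 598 kept their direction and their side of the threshold, 49 kept only the direction and none reversed. The fold limit of 2 was not among these alternatives. Of the fits that left out a library, only the fit with the highest adjusted p entered for each gene. A fold limit of 2 added to the threshold moved the counts of called members to 6 for ASK1-MKO against Lyz2-Cre, 7 for ASK1-MKO against NFATc3-MKO, 6 for MDKO against ASK1-MKO, 0 for MDKO against NFATc3-MKO, 6 for the interaction, 6 for NFATc3-MKI and 0 for ASK1-MKI; it asks for larger changes by construction. For NFATc3-MKO against Lyz2-Cre, 1 member was called by DESeq2, by voom and with the replicate block, and for MDKO against NFATc3-MKO 0 were called by voom and with only these 2 groups in the fit; the cause was not tested. Leaving out each library in turn gave 6 to 13 called members for ASK1-MKO against Lyz2-Cre, 10 to 14 against NFATc3-MKO, 0 to 2 for NFATc3-MKO against Lyz2-Cre, 6 to 14 for MDKO against ASK1-MKO, 0 to 1 for MDKO against NFATc3-MKO, 0 for MDKO against Lyz2-Cre, 9 to 14 for the interaction, 19 to 21 for NFATc3-MKI and 9 to 11 for ASK1-MKI. DESeq2 and voom called 15 and 18 members for ASK1-MKO against Lyz2-Cre, 14 and 17 against NFATc3-MKO, 16 and 18 for MDKO against ASK1-MKO and 13 and 16 for the interaction. The replicate block gave 15 called members for ASK1-MKO against Lyz2-Cre, 16 for MDKO against ASK1-MKO and 0 for MDKO against Lyz2-Cre, the only groups paired by the check, where it changed no call. Chosen after seeing the data, fits without the MDKO livers called 9 for ASK1-MKO against Lyz2-Cre, 12 against NFATc3-MKO and 0 for NFATc3-MKO, and a fit without X and Y genes called 9 for ASK1-MKI. Depth limits Npc1l1, at 0 to 9 counts per library, and Fdps in the ASK1-MKI set.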
